A study of Mus musculus with 32 samples.

Results

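The genes described here are the stress-response and chaperone genes of the mouse macrophage. They were chosen by name, from 41 symbols. Of these, 12 belong to the integrated stress response around the transcription factor ATF4, 17 are sensors of the unfolded protein response, chaperones of the endoplasmic reticulum (ER) or members of ER-associated degradation (ERAD), and 12 are heat shock genes. A probe carrying the symbol was on the array for 40 of the 41, all except Hspa1b, and the brightest such probe stood for each gene. All 40 were well above the local background on all 32 arrays, and they are 40 of the 16065 genes that were tested.

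When unfolded proteins accumulate in the ER, the sensors ATF6, IRE1 (encoded by Ern1) and PERK start separate programmes. ATF6 and the spliced form of XBP1 raise chaperone and degradation genes through an ER stress response element in their promoters, while PERK and related kinases phosphorylate eIF2α, slow protein synthesis and favour the translation of ATF4, which then raises genes of amino acid supply, serine and one-carbon metabolism and, when stress lasts, cell death. Misfolded proteins in the cytosol are met by a different programme, in which HSF1 raises the heat shock chaperones. An array reads the summed messenger RNA of a gene and cannot see XBP1 splicing, eIF2α phosphorylation or ATF4 protein.

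Macrophages were grown with M-CSF from the bone marrow of wild-type (WT) mice and of Ifnar1-/- mice, which lack a chain of the type I interferon receptor. The sample labels give the strain as C57BL/6 for both genotypes. Each genotype was left untreated or was treated for 6 h with LPS (a bacterial endotoxin, 100 ng/mL), with IFNβ (a type I interferon, 1000 U/mL) or with zVAD, a pan-caspase inhibitor. Further groups received zVAD on top of LPS or of IFNβ, without or with Nec-1, an inhibitor of the kinase RipK1. The doses are those of the sample labels, and the study's methods give other ones. RNA of each of the 16 groups was hybridised to 2 single-colour arrays, and since the labels do not say whether these came from separate mice or cultures, the p-values measure only the spread between these arrays. LPS together with zVAD is known to kill macrophages by necroptosis, and in bulk RNA fewer cells of a type and less RNA per cell cannot be told apart. The study describes 6 h as a time without detectable death, measured on cells given IFNβ, zVAD and Nec-1. It also reports very little death at 6 h after LPS with EMR, another caspase inhibitor.

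The arrays of a genotype and replicate number shared a slide, which gave 4 slides, so genotype and slide are confounded wherever levels are compared between genotypes under the same treatment. Results are therefore changes within a genotype, or differences between such changes. From 55% to 78.1% of probes were well above background on WT arrays and from 44.6% to 61.6% on Ifnar1-/- arrays. The 8 macrophage markers were well above background on every array. The log2 of their summed signal was 19.6 to 20.1 in both genotypes, against 12.9 to 14.5 for 6 neutrophil markers, 11.8 to 13.5 for 4 T cell, 8.67 to 10.5 for 4 B cell, 15.1 to 16.5 for 4 dendritic cell, 5.83 to 7.75 for 3 mast cell and 5.91 to 7.55 for 4 erythroid markers. Such a sum mostly follows the brightest gene. For dendritic cells this was Siglech, at 15.13 to 16.46, while Xcr1 was well above background on 2 of the 32 arrays. The log2 of the summed signal of the 5 fibroblast markers was 8.81 to 10.4 on WT arrays and 10.9 to 12.6 on Ifnar1-/- arrays, and the part of this difference in any value below was not tested. The brightest probes of Atf4, Asns, Chac1, Psat1, Ern1, Xbp1 and Hspa1a lie, in mm9, at chr15:80087902-80087961, chr6:7625171-7625228, chr2:119179990-119180049, chr19:15979622-15979681, chr11:106258948-106259007, chr11:5425816-5425875 and chr17:35107117-35107176. Ifnar1 itself, read by 3 probes on chromosome 16, was lower in untreated Ifnar1-/- cells with each probe, at mean log2 signals of 11.88 against 14.21, 6.77 against 8.43 and 7.98 against 9.97. Over all arrays the values of 2 of these probes did not overlap between genotypes, while those of the brightest did, from 9.04 to 14.77 in WT and from 11.13 to 12.44 in Ifnar1-/-. Whether any of the probes lies in the disrupted part of the gene is not given in the sources used here.

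The promoters show which members carry the letters that these programmes read, so the matches are printed before the values. RefSeq (GRCm38.p6) gave a window of 300 bases, from 250 before to 50 after the start of the gene, for 36 of the 41 members and for 27025 genes in all, and none for Atf6, Hspa8, Hsp90aa1, Hsp90ab1 and Hsf1. The ER stress response element was searched on both strands as CCAAT and CCACG with 9 bases of any kind between them. It was present in 8 of the 16 ER genes with a window (50%), in 0 of the 12 ATF4 genes, in 0 of the 8 heat shock genes and in 37 of the 27025 genes (0.137%). The matches follow with 3 flanking bases on each side, read 5′ to 3′ on the strand given, and the capitals mark the element.
Hspa5, chr2:34772022-34772046, plus strand: tcaCCAATCGGAGGCCTCCACGacg
Calr, chr8:84847072-84847096, plus strand: gggCCAATGAGGGTCGACCACGcgt
Hsp90b1, chr10:86705635-86705659, minus strand: agcCCAATCGCAAGGAGCCACGctt
Hsp90b1, chr10:86705530-86705554, plus strand: tcaCCAATCGTGCCTCACCACGcac
Canx, chr11:50325797-50325821, minus strand: tgaCCAATCACCACGCTCCACGaag
Pdia6, chr12:17266488-17266512, plus strand: agaCCAATGAAAGGCGGCCACGgcg
Dnajc3, chr14:118937824-118937848, plus strand: caaCCAATCAGCGCCAACCACGacc
Creld2, chr15:88819517-88819541, minus strand: ggaCCAATTGAGGCTCGCCACGaga
Syvn1, chr19:6046529-6046553, plus strand: caaCCAATCGGCGGTAGCCACGgga
These elements began between 44 and 212 bases upstream of the start, and Hsp90b1, an ER member of the HSP90 family, held a pair of them on opposite strands.

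The element read by ATF4 with its partners was searched as TGATGNAA on both strands. It was present in 3 of the 12 ATF4 genes (25%), in the ER gene Herpud1 and in 1219 of all windows (4.51%), so this short element is far more common than the ER element. The capitals mark it below.
Chac1, chr2:119351046-119351059, minus strand: gagTGATGCAAcgg
Trib3, chr2:152344036-152344049, plus strand: ggcTGATGTAAacc
Asns, chr6:7693222-7693235, minus strand: acaTGATGAAActt
Herpud1, chr8:94386314-94386327, minus strand: ggcTGATGCAAccc
A heat shock element, searched on both strands as GAA, TTC and GAA with 2 bases of any kind between neighbours, was present in 3 of the 8 heat shock genes with a window (37.5%) and in 179 of all windows (0.662%). Hspd1 and Hspe1, which encode the mitochondrial chaperonin and its partner, start next to each other in opposite directions and share the same stretch, in which the element occurs on each strand with an overlap.
Hspd1 and Hspe1, chr1:55088056-55088074, minus strand: ccgGAAGGTTCTAGAAcgg
Hspd1 and Hspe1, chr1:55088061-55088079, plus strand: ctaGAACCTTCCGGAAggc
Hsph1, chr5:149636285-149636303, plus strand: ggaGAACTTTCCAGAAtct
The element TGACGTGG, also called the unfolded protein response element, was in 193 windows (0.714%) and in none of the members. A match describes letters and is not evidence that a factor bound there.

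The replicates of the WT groups differed for the ATF4 genes in a way that touches every value below. In WT untreated, zVAD and LPS+zVAD cells, replicate 2 minus replicate 1 had a median over the 12 ATF4 genes of -0.26, -0.18 and -0.23 on the log2 scale. With LPS it was 0.92, with IFNβ 1.49, with IFNβ+zVAD 1.80, with LPS+zVAD+Nec-1 0.55 and with IFNβ+zVAD+Nec-1 1.59, and 8, 11, 11, 9 and 10 of the 12 genes were higher in replicate 2. Chac1, which encodes a glutathione-degrading enzyme, was at 5.37 and 12.25 in the LPS replicates and at 9.19 and 13.63 in the IFNβ replicates. In the Ifnar1-/- groups the medians of that difference ran from -0.35 to 0.27. Without regard to sign, the median gap over the ATF4 genes in Ifnar1-/- cells was largest in LPS+zVAD+Nec-1, at 0.884, beside 0.916 in WT LPS cells. In that Ifnar1-/- group the median gap over all genes was 0.513 against 0.204 to 0.383 in the other 15 groups, and Mthfd2 was at 12.17 and 9.41. The cause of these gaps was not tested. The fit takes the error of a gene from all 16 groups together, so a gene with wide gaps in a few groups has a wide error in every comparison.

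**Figure D1:**
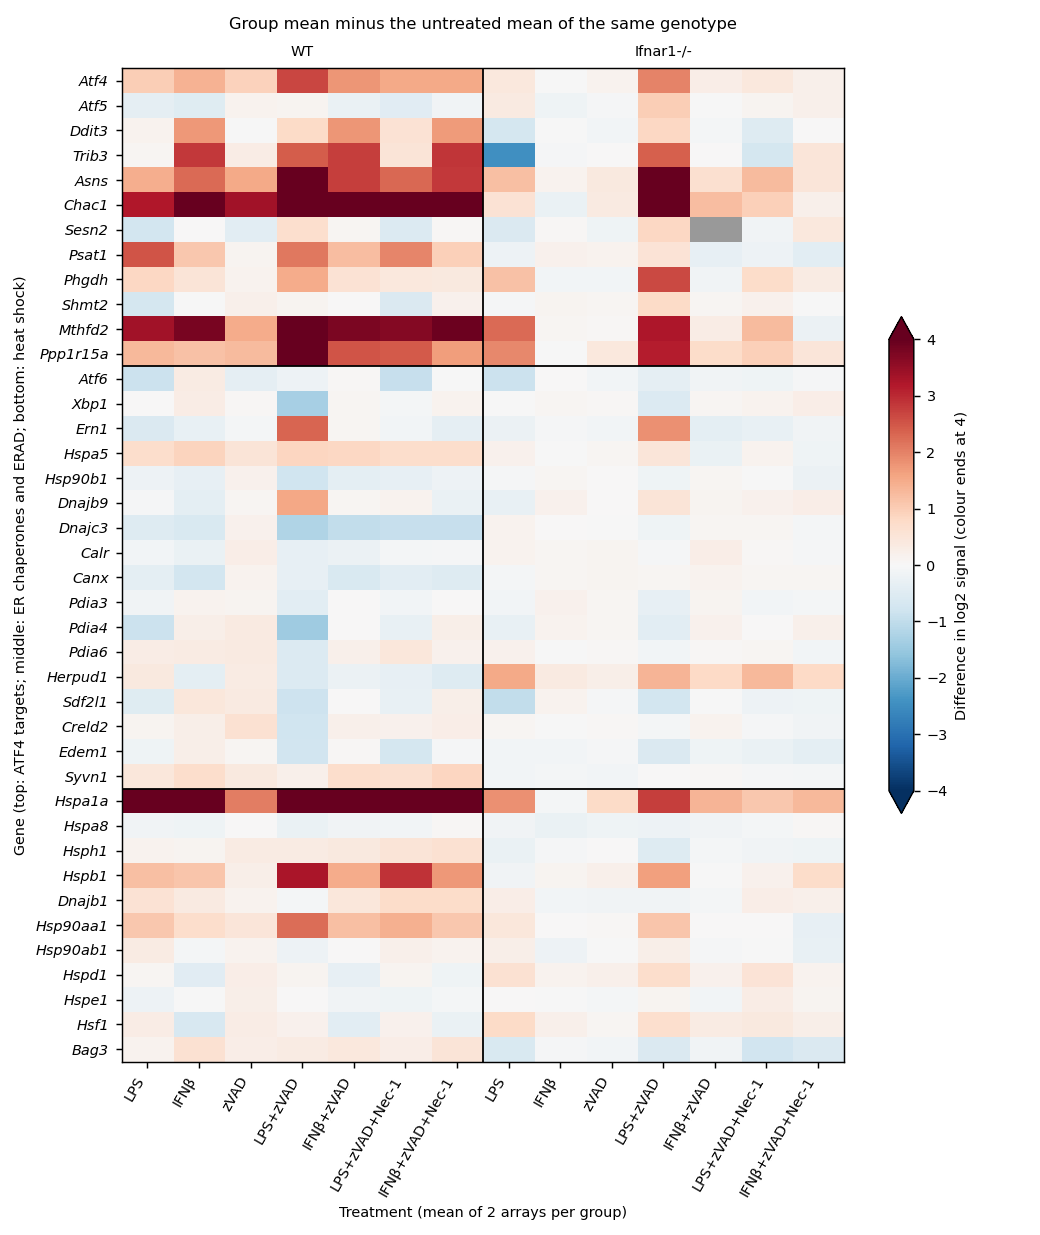
Rows are the 40 measured genes in their 3 groups, columns the 7 treatments of WT and of Ifnar1-/- cells, and colour the group mean minus the untreated mean of the same genotype in log2 signal (2 arrays per group; grey, a group with a discarded spot). In the LPS+zVAD columns 7 of the 12 ATF4 genes had their highest WT mean and all 12 their highest Ifnar1-/- mean, and in WT LPS+zVAD 11 of the 17 ER genes had their lowest WT mean. The shares of all genes with their highest or lowest mean in these groups were not counted.

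With LPS a smaller share of these genes than of all genes passed in WT cells, and the changes were large for Hspa1a, Mthfd2 and Psat1. The counts here are from the fit without a block, and more genes passed with the replicate number as a block. In the comparison of LPS with no treatment, 8 of the 40 genes passed the test (limma, adjusted p under 0.05), 5 higher and 3 lower, which is 20% against 41.6% of all genes tested (16.1% higher and 25.5% lower). The genes' share lay below that background, with a median log2 fold change of 0.12 against -0.09 for all genes. By group, 2 ATF4 genes were higher and 1 lower (median 0.92), 2 ER genes were higher and 2 lower (median -0.13), and 1 heat shock gene was higher (median 0.29). Scaling each array to its 75th percentile in place of quantile normalization gave 12 higher and 1 lower, and turned the median of the ER genes to 0.37. Over all 16065 genes it gave 3145 higher and 3004 lower, in place of 2588 and 4098. Without untreated replicate 1, 5 genes passed. Across these data that scaling moved the median of all genes by 0.18 for LPS, 0.16 for IFNβ, 0.13 for LPS+zVAD over LPS and -0.13 for Nec-1 in WT cells, and by -0.12 and -0.11 for the genotype differences in the LPS and LPS+zVAD changes.

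Of the ATF4 genes, Mthfd2, the mitochondrial folate enzyme, was at log2 signals of 8.10 and 7.89 untreated and 10.84 and 11.85 with LPS. It rose 10.2-fold (log2 3.35 ± 0.69 SE, adjusted p = 0.000673). Psat1, an enzyme of serine synthesis, was at 10.22 and 9.68 untreated and 12.69 and 12.26 with LPS, a rise of 5.76-fold (log2 2.53 ± 0.32 SE, adjusted p = 6.23e-06). Both LPS arrays lay above both untreated arrays for each of these enzymes. Shmt2, the mitochondrial serine hydroxymethyltransferase that works beside Mthfd2, was at 10.08 and 9.79 untreated and 9.43 and 9.03 with LPS, and fell by 0.70 (SE 0.28, adjusted p = 0.0484). That call was lost whichever of the 4 arrays was left out, with adjusted p-values of up to 0.265 over its alternatives. Atf4 itself, at 15.55 and 15.32 untreated and 15.95 and 16.91 with LPS, had a log2 fold change of 0.996 (SE 0.58, adjusted p = 0.185, and adjusted p = 0.0365 with the replicate number as a block). Chac1 and Trib3, a pseudokinase that restrains ATF4, overlapped between the groups because their LPS replicates stood on either side of the untreated arrays.

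Among the ER genes, Hspa5, the ER chaperone BiP, was at 16.09 and 16.14 untreated and 16.81 and 16.84 with LPS. Its rise of 1.64-fold (log2 0.71 ± 0.18 SE, adjusted p = 0.00395) was nearly the same within each replicate, 0.73 and 0.70. Syvn1, the ubiquitin ligase HRD1 of ERAD, was at 14.31 and 14.17 untreated and 14.73 and 14.67 with LPS (log2 0.46 ± 0.15 SE, adjusted p = 0.0219). These are small steps between groups that did not overlap. Atf6, the sensor that is cut in the Golgi, was at 10.30 and 10.37 untreated and 9.44 and 9.54 with LPS, and fell by 0.84 (SE 0.30, adjusted p = 0.028). Dnajc3, a co-chaperone that inhibits eIF2α kinases, was at 11.58 and 11.42 untreated and 10.88 and 11.06 with LPS, and fell by 0.53 (SE 0.17, adjusted p = 0.0195). The calls for Syvn1, Atf6 and Dnajc3 were lost without at least 2 of the 4 arrays each, while that for Hspa5 was kept whichever array was left out. With normexp background correction none of the members passed as lower with LPS, so the falls of Shmt2, Atf6 and Dnajc3 lost their calls. The deposited normalized values lost Atf6 (limma, adjusted p = 0.068) and Dnajc3 (0.0908) and gave no value for Shmt2.

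Of the heat shock genes, Hspa1a, which encodes the inducible cytosolic HSP70, had the largest change. It was at 7.70 and 7.39 untreated and 11.30 and 11.81 with LPS, 16.1-fold higher (log2 4.01 ± 0.60 SE, adjusted p = 3.34e-05). Hspa1b is a near-identical copy, and the probe may read both. Hsf1, the factor that drives these genes, was at 10.97 and 11.14 untreated and 11.27 and 11.42 with LPS (log2 0.29 ± 0.17 SE, adjusted p = 0.194). With the replicate number as a block, 16 of the 40 genes passed in this comparison, 9 higher and 7 lower, among them Ppp1r15a (GADD34, which reverses eIF2α phosphorylation), Hsp90aa1 and Dnajb1, all higher. Over all genes the share passing with that block was 54.1% (21.7% higher and 32.4% lower).

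The other genes of the same pathways were counted from lists of pathway membership. In WT cells with LPS, 19 of 32 further integrated stress response genes passed, 11 higher and 8 lower. The largest rises were in Slc7a11, the cystine transporter, at 4.07 and 4.69 untreated and 11.60 and 10.85 with LPS (log2 6.85, adjusted p = 0.00103), Pycr1, of proline synthesis (4.17), and Nupr1 (3.91). The largest falls were in the eIF2α kinases Eif2ak4 (-2.33) and Eif2ak3, which encodes PERK (-2.21), and in Vldlr (-1.61). Of 38 further ER genes 5 rose, led by the oxidase Ero1l (1.47), the secreted factor Manf (1.16) and the ERAD enzyme Ube2j1 (0.92), and 10 fell, led by Erlec1 (-1.42), Ero1lb (-1.31) and the protease Mbtps1, which cuts ATF6 (-1.20). Of 33 further heat shock genes 10 rose, led by Stip1 (1.85), Chordc1 (1.38) and Dnaja2 (1.36), and 3 fell, Hspa14 (-0.96), Ahsa1 (-0.67) and Fkbp4 (-0.60). The share that passed was 59.4% of the further integrated stress response genes, against 41.6% of all genes. It was 39.5% of the further ER genes and 39.4% of the further heat shock genes, both near the share of all genes.

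IFNβ alone changed 10 of the 40 genes in WT cells, 7 higher and 3 lower. That is 25% against 36% of all genes (13.5% higher and 22.5% lower), with a median of 0.27 against -0.18. The untreated arrays are the same as in the LPS comparison, and without either of them 6 genes passed. Chac1 was at 5.78 and 5.46 untreated and 9.19 and 13.63 with IFNβ, a log2 fold change of 5.78 (SE 1.90, adjusted p = 0.0228), and without IFNβ replicate 2 the change was 3.56 and did not pass (adjusted p = 0.253). Mthfd2 was at 11.05 and 12.52 with IFNβ (log2 3.79 ± 0.69 SE, adjusted p = 0.000282). Asns, asparagine synthetase, was at 10.13 and 9.23 untreated and 10.75 and 13.14 with IFNβ (log2 2.27 ± 0.84 SE, adjusted p = 0.0417), and without IFNβ replicate 2 the change was 1.07 (adjusted p = 0.439). The 4 ATF4 genes that passed, with Psat1 at 11.30 and 10.76 (log2 1.08 ± 0.32 SE, adjusted p = 0.0122), were all higher on both IFNβ arrays than on both untreated arrays. Ddit3, the death-promoting factor CHOP, was at 10.74 and 11.27 untreated and 11.67 and 13.79 with IFNβ (log2 1.73 ± 0.83 SE, adjusted p = 0.117).

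In the same comparison Hspa5 was at 16.99 and 17.01 with IFNβ (log2 0.89 ± 0.18 SE, adjusted p = 0.000866) and Syvn1 at 14.95 and 14.94 (log2 0.70 ± 0.15 SE, adjusted p = 0.00143). Canx, the lectin chaperone calnexin, was at 14.95 and 14.50 untreated and 14.02 and 13.95 with IFNβ, and fell by 0.74 (SE 0.17, adjusted p = 0.00201), a change that shrank to -0.23 under scaling to the 75th percentile. Dnajc3, at 10.92 and 10.87 with IFNβ, fell by 0.61 (SE 0.17, adjusted p = 0.00982). Of the 4 ER genes that passed, Hspa5 and Syvn1 rose and Canx and Dnajc3 fell, and the promoters of all 4 hold the ER stress element printed above. Scaling to the 75th percentile moved the split over the 40 genes to 11 higher and 2 lower. Over all genes it moved the split from 2167 higher and 3616 lower to 2435 and 2497. Hspa1a rose 26.2-fold to 11.65 and 12.86 (log2 4.71 ± 0.60 SE, adjusted p = 6.57e-06), and Hsf1 fell by 0.65 to 10.27 and 10.54 (SE 0.17, adjusted p = 0.00603). The calls of Psat1 and Hsf1 were lost without untreated replicate 2 or IFNβ replicate 1, that of Canx without untreated replicate 1, that of Dnajc3 without untreated replicate 1 or IFNβ replicate 2, and those of Chac1 and Asns also without either untreated array. The deposited normalized values also lost the call of Dnajc3 (limma, adjusted p = 0.0991). With the replicate number as a block 19 genes passed, 14 higher and 5 lower, and these included Atf4 (1.39, adjusted p = 0.00621), Ddit3 (adjusted p = 0.00438) and Trib3 (2.82, adjusted p = 0.0397), while 49.7% of all genes passed (18.1% higher and 31.6% lower).

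zVAD alone left 0 of the 40 genes past the threshold in WT cells by limma, and 1 of all 16065 genes (0.00622%), with 897 at an unadjusted p below 0.05. The values were above the untreated mean for 36 of the 40, with a median difference of 0.24 against -0.03 for all genes. Hspa1a was at 9.01 and 10.20 with zVAD (log2 2.06 ± 0.60 SE, adjusted p = 0.473, and 0.0419 with the replicate block, under which 0.156% of all genes passed). Chac1 was at 9.30 and 8.63 against 5.78 and 5.46 untreated (log2 3.35 ± 1.90 SE, adjusted p = 0.98). Both zVAD arrays lay above both untreated arrays for these genes.

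**Figure D2:**
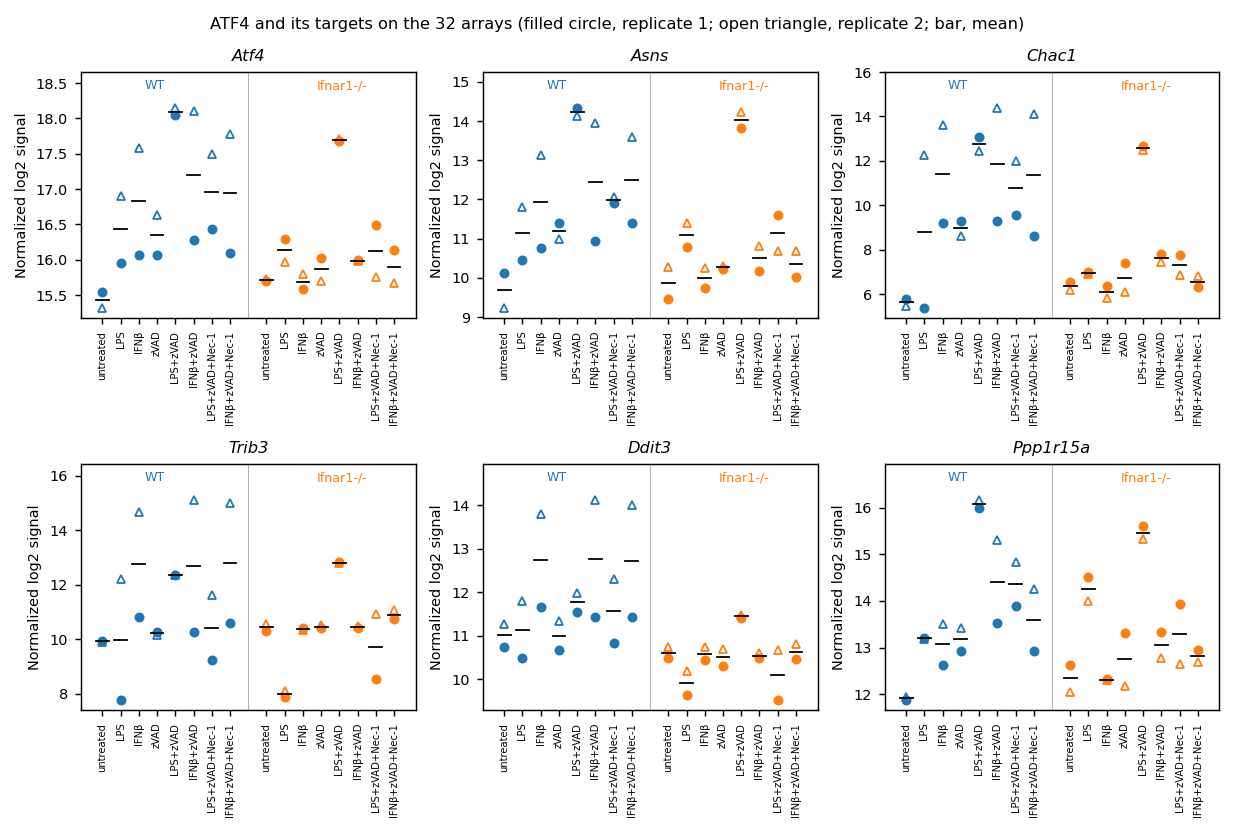
Normalized log2 signal of 6 ATF4 pathway genes on each of the 32 arrays, by treatment and genotype (filled circle, replicate 1; open triangle, replicate 2; bar, group mean). Atf4, Asns and Ppp1r15a have their highest WT mean in LPS+zVAD, all 6 have their highest Ifnar1-/- mean there, and for Chac1 and Trib3 the replicates lie far apart in WT cells with LPS, IFNβ, IFNβ+zVAD and IFNβ+zVAD+Nec-1 but not with LPS+zVAD.

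Adding zVAD to LPS is the comparison in which the largest number of these genes passed. In WT cells 15 of the 40 genes passed, 8 higher and 7 lower. That is 37.5%, close to the 34.5% of all genes (12.9% higher and 21.6% lower). Without LPS+zVAD replicate 2 the number was 9, and with the replicate block it was 21, against 47.8% of all genes. Of the 12 ATF4 genes 4 rose and none fell (median 1.11, 11 above 0), of the 17 ER genes 2 rose and 6 fell (median -0.35, 5 above 0), and of the 11 heat shock genes 2 rose and 1 fell (median 0.19), while the median of all genes was -0.04. With scaling to the 75th percentile 4 ATF4 genes rose and none fell, and 3 ER genes rose and 5 fell. Over all genes it gave 2196 higher and 3290 lower, in place of 2066 and 3476.

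Atf4 was at 15.95 and 16.91 with LPS and 18.04 and 18.14 with LPS+zVAD, a rise of 3.17-fold (log2 1.66 ± 0.58 SE, adjusted p = 0.0313). Asns was at 10.47 and 11.82 with LPS and 14.33 and 14.13 with LPS+zVAD (8.48-fold, log2 3.08 ± 0.84 SE, adjusted p = 0.00745). Ppp1r15a was at 13.20 and 13.19 with LPS and 15.98 and 16.16 with LPS+zVAD (7.34-fold, log2 2.88 ± 0.55 SE, adjusted p = 0.000481). The arrays of the groups did not overlap for any of these, and the replicates of Ppp1r15a gave nearly the same step, 2.78 and 2.97. The calls of Atf4 and Asns were lost without LPS replicate 1 (adjusted p = 0.216 and 0.0812), and that of Atf4 also without either LPS+zVAD array. Shmt2 was at 9.43 and 9.03 with LPS and 10.44 and 9.64 with LPS+zVAD (log2 0.81, SE 0.28, adjusted p = 0.0282). Chac1 was at 5.37 and 12.25 with LPS and 13.10 and 12.46 with LPS+zVAD, so its difference was 7.73 in replicate 1 and 0.21 in replicate 2, and Trib3 likewise differed by 4.58 and 0.15. These mean differences of 3.97 and 2.36 did not pass (adjusted p = 0.119 and 0.272), and with the replicate block Chac1 did (adjusted p = 0.0307). Ddit3 was at 10.47 and 11.80 with LPS and 11.54 and 11.98 with LPS+zVAD, with overlap between the groups (log2 0.63 ± 0.83 SE, adjusted p = 0.635).

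The ER genes that passed moved in both directions. Ern1, the sensor IRE1, was at 8.88 and 9.07 with LPS and 11.72 and 12.08 with LPS+zVAD, a rise of 7.57-fold (log2 2.92 ± 0.26 SE, adjusted p = 2.05e-07). Dnajb9, an ER co-chaperone that binds IRE1, was at 11.67 and 11.32 with LPS and 13.18 and 12.97 with LPS+zVAD (2.98-fold, log2 1.58 ± 0.16 SE, adjusted p = 1.03e-06). These were the ER genes that rose, and their LPS+zVAD arrays were the highest of all WT arrays. Xbp1, whose messenger RNA IRE1 splices, was at 15.63 and 15.45 with LPS and 14.69 and 13.70 with LPS+zVAD, 2.54-fold lower (log2 -1.35, SE 0.25, adjusted p = 0.000396). Creld2, a secreted ER stress protein, was at 13.19 and 13.95 with LPS and 12.73 and 12.61 with LPS+zVAD, and fell by 0.90 (SE 0.21, adjusted p = 0.00249). The disulfide isomerase Pdia6 was at 15.45 and 15.88 with LPS and 14.90 and 14.73 with LPS+zVAD, and fell by 0.85 (SE 0.19, adjusted p = 0.00164). In each of these 3 genes replicate 2 fell further than replicate 1. Dnajc3 fell by 0.66 to 10.46 and 10.16 (SE 0.17, adjusted p = 0.00545), Edem1, which marks glycoproteins for ERAD, fell by 0.59 to 12.14 and 11.80 (SE 0.17, adjusted p = 0.0103), and Hsp90b1 fell by 0.58 to 14.74 and 14.44 (SE 0.21, adjusted p = 0.0438). The calls of Creld2 and Dnajc3 were lost without LPS replicate 2, and that of Dnajc3 also without LPS+zVAD replicate 2. Hspa5 was at 16.81 and 16.84 with LPS and 17.02 and 16.92 with LPS+zVAD (log2 0.14 ± 0.18 SE, adjusted p = 0.617).

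Of the 8 ER genes whose promoter holds the ER stress element, none rose and 4 fell, Creld2, Pdia6, Dnajc3 and Hsp90b1, with a median of -0.42. Of the 8 with a window and no match, 2 rose and 2 fell, with a median of -0.45. The medians were close in this comparison, but the changes ran from -0.90 to 0.14 with the element and from -1.35 to 2.92 without it. Whether the element has a part in these changes was not tested. Among the further ER genes 5 of 38 rose and 15 fell, among the further integrated stress response genes 8 of 32 rose and 4 fell, and of 33 further heat shock genes 7 rose and 7 fell. These are 52.6%, 37.5% and 42.4% of the lists, against 34.5% of all genes.

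**Figure D3:**
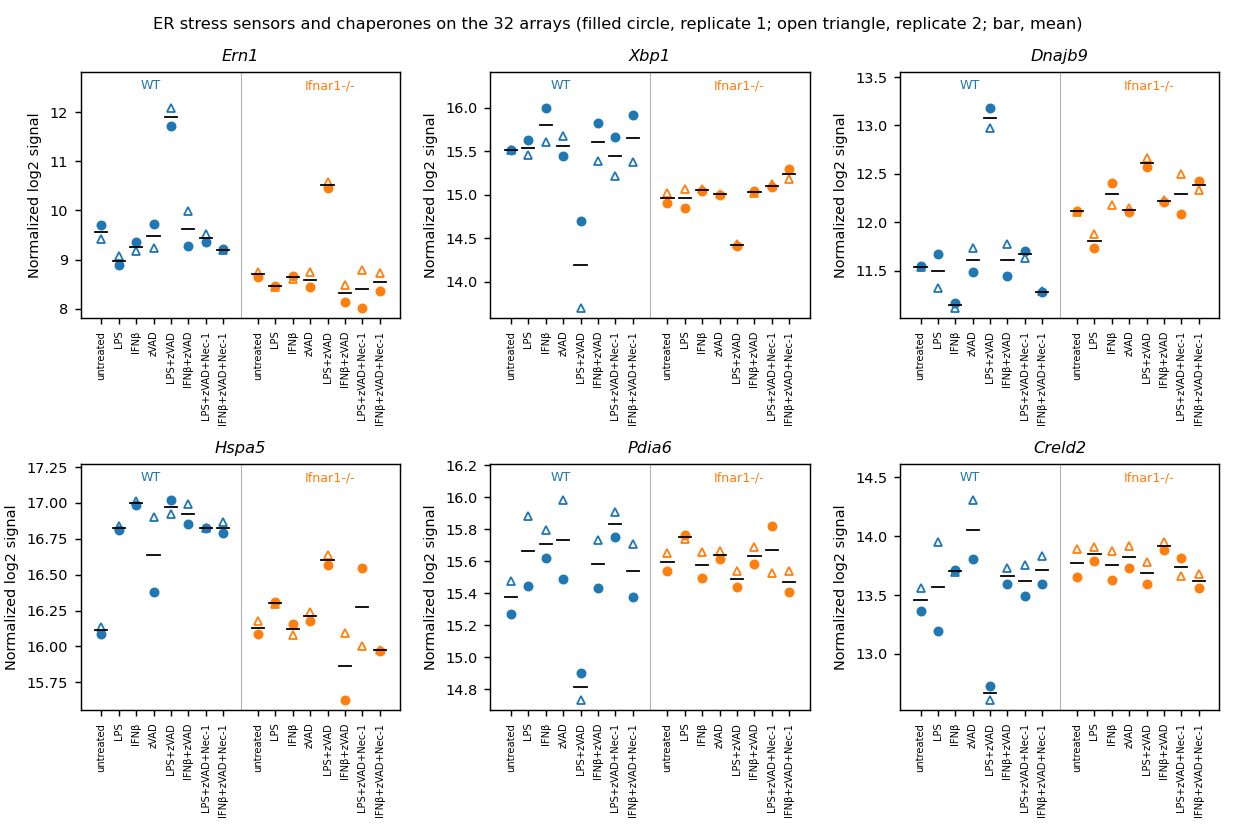
Normalized log2 signal of 6 ER genes on each of the 32 arrays, by treatment and genotype (filled circle, replicate 1; open triangle, replicate 2; bar, group mean). In WT LPS+zVAD the sensor Ern1 and Dnajb9 are at their highest and Xbp1, Pdia6 and Creld2 at their lowest WT mean, while Hspa5 stays between 16.09 and 17.02 on all WT arrays.

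Of the heat shock genes, Hspb1, the small heat shock protein HSP27, was at 9.48 and 8.85 with LPS and 11.48 and 11.02 with LPS+zVAD (4.24-fold, log2 2.08 ± 0.55 SE, adjusted p = 0.00584), and lost its call without LPS replicate 2. Hsp90aa1, the inducible cytosolic HSP90, was at 14.17 and 15.04 with LPS and 15.61 and 15.96 with LPS+zVAD (log2 1.18 ± 0.44 SE, adjusted p = 0.0426). Dnajb1, the HSP40 partner of HSP70, was at 14.27 and 15.10 with LPS and 14.09 and 13.99 with LPS+zVAD, and fell by 0.64 (SE 0.23, adjusted p = 0.0349), a call lost with scaling to the 75th percentile, without LPS replicate 2 and without either LPS+zVAD array. Hspa1a was at 12.18 and 13.05 with LPS+zVAD, 1.06 above LPS (SE 0.60, adjusted p = 0.192, and 0.0262 with the replicate block). Hsf1 was at 11.15 and 11.30 (log2 -0.12 ± 0.17 SE, adjusted p = 0.664). The constitutive Hspa8, at 17.35 and 16.95, differed from LPS by -0.12 (SE 0.23).

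Adding Nec-1 to LPS+zVAD changed 10 of the 40 genes in WT cells, 7 higher and 3 lower. That is 25% against 28.3% of all genes (18.5% higher and 9.86% lower), and the LPS+zVAD arrays are those of the last comparison. Without either Nec-1 array 6 genes passed. All 12 ATF4 genes were below 0 (median -1.08) and 1 passed, 6 ER genes rose and 2 fell (median 0.28), and 1 heat shock gene rose. The split changed with scaling to the 75th percentile, to 3 higher and 5 lower, and with normexp background correction, to 5 higher and 4 lower. Over all genes the scaling gave 2590 higher and 1794 lower, in place of 2969 and 1584. Ern1 was at 9.35 and 9.53 with Nec-1 and fell by 2.46 (SE 0.26, adjusted p = 2.4e-06), Ppp1r15a was at 13.89 and 14.83 and fell by 1.71 (SE 0.55, adjusted p = 0.0256), and Dnajb9 was at 11.70 and 11.63 and fell by 1.41 (SE 0.16, adjusted p = 6.56e-06). For these 3 genes both Nec-1 arrays lay below both LPS+zVAD arrays. Xbp1 was at 15.66 and 15.22 with Nec-1 (log2 1.25 ± 0.25 SE, adjusted p = 0.00105) and the disulfide isomerase Pdia4 at 9.63 and 9.36, from 8.94 and 7.85 (2.15-fold, SE 0.36 on the log2 scale, adjusted p = 0.0284). Pdia6 was at 15.75 and 15.91 (log2 1.01 ± 0.19 SE, adjusted p = 0.000486), Creld2 at 13.49 and 13.75 (log2 0.95 ± 0.21 SE, adjusted p = 0.00211) and Dnajb1 at 14.55 and 15.15 (log2 0.81 ± 0.23 SE, adjusted p = 0.0112). None of these groups overlapped, and Sdf2l1, a BiP cofactor, and Syvn1 also passed with rises of 0.55 and 0.46.

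In the same comparison Atf4 was at 16.43 and 17.49 with Nec-1 (log2 -1.13 ± 0.58 SE, adjusted p = 0.163) and Ddit3 at 10.84 and 12.31, with overlap (log2 -0.19 ± 0.83 SE). Asns was at 11.91 and 12.06 with Nec-1 and had a log2 fold change of -2.24 (SE 0.84, adjusted p = 0.0532). With the replicate block 16 genes passed, 8 higher and 8 lower, among them Atf4 (adjusted p = 0.0252) and Asns (adjusted p = 0.021), against 41.8% of all genes (24.6% higher and 17.1% lower). Hspa5, Hspa1a and Hsf1 had log2 fold changes of -0.15, -0.26 and 0.01 and did not pass. The call of Ppp1r15a was lost without either LPS+zVAD array or without LPS+zVAD+Nec-1 replicate 1, that of Pdia4 without LPS+zVAD replicate 2, without either Nec-1 array and with scaling to the 75th percentile, and that of Dnajb1 without replicate 2 of either group and with that scaling.

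Adding zVAD to IFNβ, or Nec-1 to IFNβ+zVAD, left 0 of the 40 genes past the threshold in WT cells by limma, as it did for all genes (0% in both comparisons). Counted at an unadjusted p below 0.05 there were 638 and 621 genes. Log2 fold changes of the 40 lay between -0.43 and 1.34 for zVAD and between -0.82 and 0.25 for Nec-1. Within replicates the ATF4 genes kept the distance described above, with Trib3 at 10.29 and 15.11 in IFNβ+zVAD and at 10.61 and 14.99 in IFNβ+zVAD+Nec-1.

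**Figure D4:**
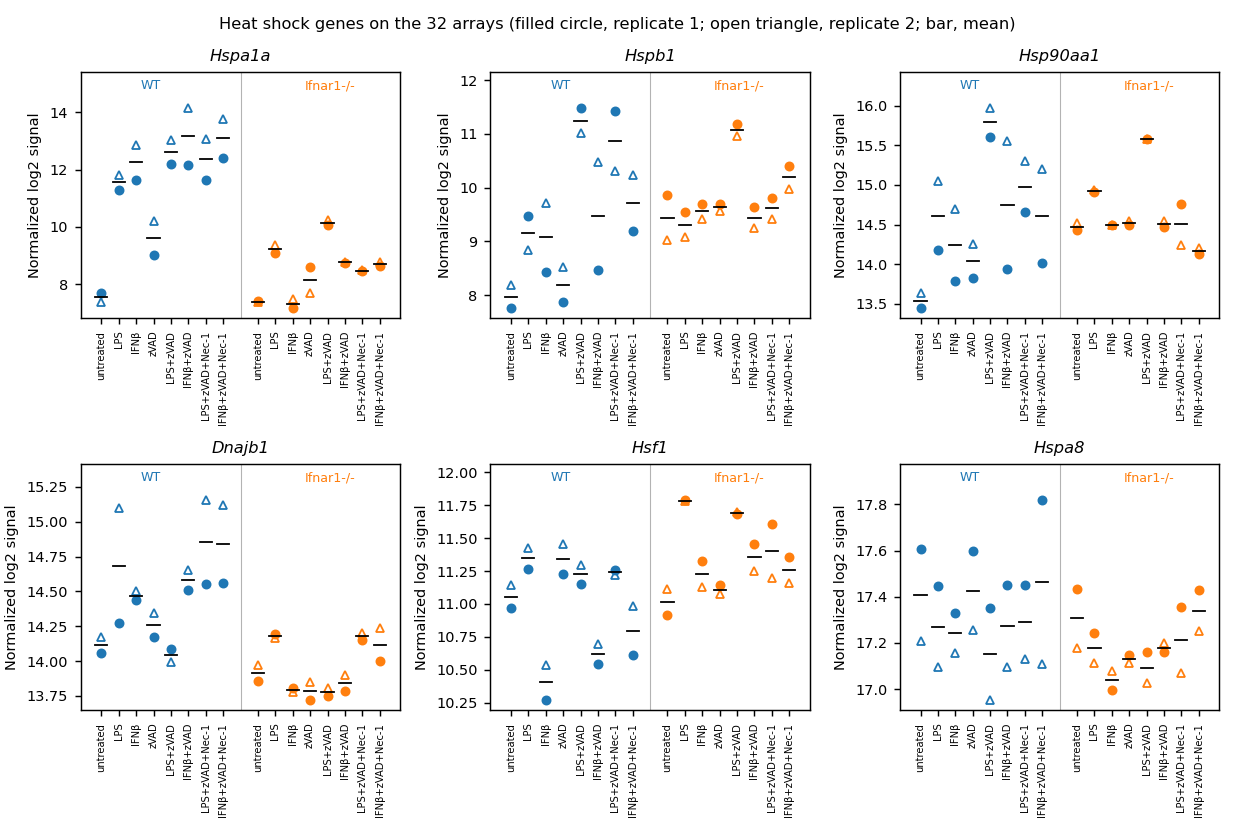
Normalized log2 signal of 6 heat shock genes on each of the 32 arrays, by treatment and genotype (filled circle, replicate 1; open triangle, replicate 2; bar, group mean). Hspa1a runs from 7.39 in untreated to 14.14 in IFNβ+zVAD on WT arrays and reaches 10.24 on Ifnar1-/- arrays, Hspb1 is highest in LPS+zVAD in both genotypes, and Hspa8 varies by less than 1 log2 unit on all arrays.

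In Ifnar1-/- cells LPS changed 6 of the 40 genes, 4 higher and 2 lower, 15% against 25.1% of all genes (10.6% higher and 14.5% lower), with a median of 0.00 against -0.07. Mthfd2 was at 9.52 and 9.49 untreated and 11.78 and 11.74 with LPS (log2 2.25 ± 0.69 SE, adjusted p = 0.0211), and Ppp1r15a was at 12.63 and 12.05 untreated and 14.51 and 13.996 with LPS (log2 1.92 ± 0.55 SE, adjusted p = 0.0151). Hspa1a was at 7.40 and 7.37 untreated and 9.09 and 9.37 with LPS (log2 1.84 ± 0.60 SE, adjusted p = 0.0288). Hsf1 was at 10.92 and 11.12 untreated and 11.79 and 11.78 with LPS (log2 0.77 ± 0.17 SE, adjusted p = 0.00284). The groups did not overlap for any of these 4 genes. Sdf2l1 was at 12.84 and 13.02 untreated and 11.89 and 11.98 with LPS and fell by 0.99 (SE 0.19, adjusted p = 0.00106), and Atf6 was at 10.37 and 10.43 untreated and 9.37 and 9.70 with LPS and fell by 0.86 (SE 0.30, adjusted p = 0.0382). Leaving out any of the 4 arrays left 2 or 3 genes past the threshold, and the calls of Mthfd2 (adjusted p up to 0.0943), Hspa1a (up to 0.203) and Atf6 (up to 0.229) were lost without each of them, that of Ppp1r15a without untreated replicate 2 or LPS replicate 1, while those of Hsf1 and Sdf2l1 were kept. With the replicate block 8 genes passed, against 38.7% of all genes.

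Other members that fell in level with LPS in Ifnar1-/- cells did not pass. Trib3 was at 10.31 and 10.57 untreated and 7.89 and 8.09 with LPS (log2 -2.45 ± 1.55 SE, adjusted p = 0.29), and Ddit3 at 10.47 and 10.74 untreated and 9.62 and 10.19 with LPS (log2 -0.70 ± 0.83 SE, adjusted p = 0.632). The replicates agreed within 0.57 and the groups did not overlap, and the wide errors are those pooled over all 16 groups. Atf4, Xbp1 and Hspa5 had log2 fold changes of 0.42, -0.01 and 0.17 (adjusted p = 0.688, 0.989 and 0.578). The ER genes had a median of -0.06 here, which became 0.27 with scaling to the 75th percentile. Of the further integrated stress response genes 7 of 32 rose and none fell, of the further ER genes 7 of 38 rose and 7 fell, and of the further heat shock genes 6 of 33 rose and 1 fell. These are 21.9%, 36.8% and 21.2% of the lists, against 25.1% of all genes.

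IFNβ, zVAD, zVAD added to IFNβ and Nec-1 added to IFNβ+zVAD each left 0 of the 40 genes past the threshold in Ifnar1-/- cells by limma. The shares of all genes were 0%, 0%, 0.00622% and 1.61% (1.06% higher and 0.542% lower in the last). An unadjusted p below 0.05 was found for 255, 60, 378 and 1608 genes. For IFNβ the log2 fold changes of the 40 lay between -0.27 and 0.37. Hspa1a was at 7.17 and 7.48 with IFNβ against 7.40 and 7.37 untreated, and Chac1 at 6.37 and 5.82 against 6.55 and 6.17.

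**Figure D5:**
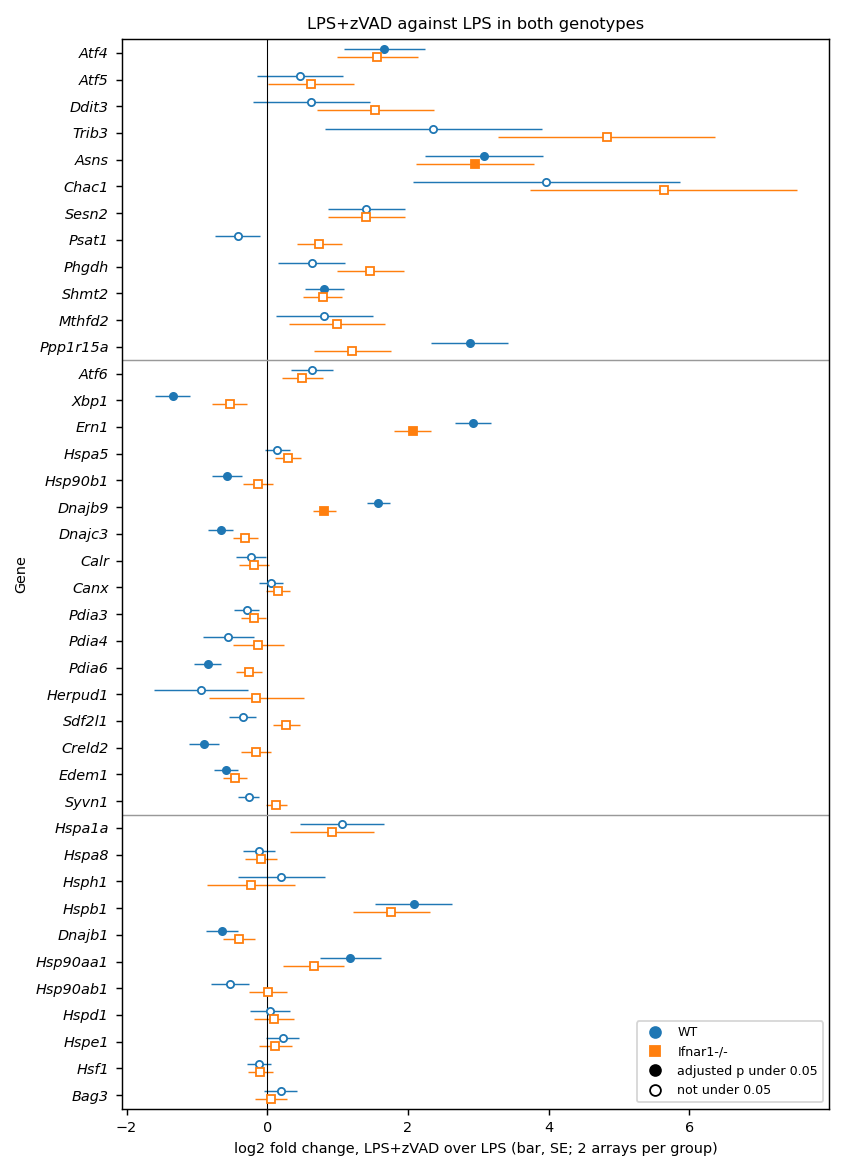
Log2 fold change of LPS+zVAD over LPS for the 40 genes in WT (circles) and Ifnar1-/- cells (squares), with the standard error of the fit as bars and filled symbols for an adjusted p under 0.05 (2 arrays per group). Ern1, Dnajb9 and Asns pass in both genotypes, all 12 ATF4 genes lie above 0 in Ifnar1-/- cells and 11 of 12 in WT cells, and Xbp1, Creld2 and Pdia6 pass below 0 in WT cells.

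Adding zVAD to LPS in Ifnar1-/- cells raised 3 of the 40 genes and lowered none, 7.5% against 8.52% of all genes (4.75% higher and 3.77% lower), and without LPS replicate 1 only Ern1 passed. All 12 ATF4 genes were above 0, with a median of 1.44 against -0.06 for all genes, and all 12 had their highest Ifnar1-/- mean in LPS+zVAD. The share of all genes with their highest mean in that group was not counted. Asns was at 10.78 and 11.39 with LPS and 13.83 and 14.24 with LPS+zVAD (7.73-fold, log2 2.95 ± 0.84 SE, adjusted p = 0.0351). Ern1 was at 8.46 and 8.44 with LPS and 10.46 and 10.58 with LPS+zVAD (4.19-fold, log2 2.07 ± 0.26 SE, adjusted p = 6.15e-05). Dnajb9 was at 11.74 and 11.88 with LPS and 12.57 and 12.66 with LPS+zVAD (1.75-fold, log2 0.81 ± 0.16 SE, adjusted p = 0.00404). The call of Asns was lost without each of the 4 arrays (adjusted p up to 0.214) and that of Dnajb9 without LPS replicate 1, while Ern1 kept its call.

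The widest differences here did not pass. Chac1 was at 6.99 and 6.92 with LPS and 12.68 and 12.50 with LPS+zVAD (log2 5.64 ± 1.90 SE, adjusted p = 0.0737), and Trib3 was at 7.89 and 8.09 with LPS and 12.84 and 12.79 with LPS+zVAD (log2 4.82 ± 1.55 SE, adjusted p = 0.0609). Their replicates differed by at most 0.20, against a gap of 6.88 between the WT LPS replicates of Chac1. With the replicate number as a block 13 of the 40 genes passed, 12 higher and 1 lower, and these included Chac1 (adjusted p = 0.0113), Trib3 (adjusted p = 0.00532), Atf4 (1.56, adjusted p = 0.00915), Ddit3 (1.54, adjusted p = 0.0245) and Ppp1r15a (1.21, adjusted p = 0.0278). Of all genes 19.4% passed with that block (8.99% higher and 10.4% lower). Xbp1 was at 14.85 and 15.06 with LPS and 14.40 and 14.44 with LPS+zVAD (log2 -0.53 ± 0.25 SE, adjusted p = 0.225). Hspa5 was at 16.31 and 16.30 with LPS and 16.57 and 16.64 with LPS+zVAD (log2 0.30 ± 0.18 SE), Hspa1a at 9.09 and 9.37 and then 10.06 and 10.24 (log2 0.92 ± 0.60 SE), and Hsf1 at 11.68 and 11.69 with LPS+zVAD (log2 -0.10 ± 0.17 SE), none of them past the threshold.

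Adding Nec-1 to LPS+zVAD in Ifnar1-/- cells lowered 4 of the 40 genes and raised none, 10% against 19.4% of all genes (11.8% higher and 7.57% lower). It rests on the pair of arrays that stood apart. Asns was at 11.60 and 10.69 with Nec-1 and fell by 2.89 (SE 0.84, adjusted p = 0.0217), and Ern1 was at 8.01 and 8.80 and fell by 2.12 (SE 0.26, adjusted p = 3.78e-05). Ppp1r15a was at 13.94 and 12.64 and fell by 2.17 (SE 0.55, adjusted p = 0.0103), and Phgdh, which opens serine synthesis, was at 9.17 and 8.42, from 10.61 and 10.81, and fell by 1.92 (SE 0.47, adjusted p = 0.00902). All 12 ATF4 genes were below 0 (median -1.75), and both Nec-1 arrays lay below both LPS+zVAD arrays for the 4 genes that passed. Ern1 kept its call under all alternatives, and those of Asns, Ppp1r15a and Phgdh were lost without LPS+zVAD replicate 1 and without Nec-1 replicate 2, those of Asns and Phgdh also without LPS+zVAD replicate 2. Between 1 and 9 genes passed when an array was left out, 9 of them without Nec-1 replicate 1, and 16 (2 higher, 14 lower) with the replicate block, which passed 35.3% of all genes (21.3% higher and 14% lower). The ER genes had a median of 0.15, which became -0.27 with scaling to the 75th percentile.

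The difference between genotypes was tested on the changes themselves. For LPS against no treatment 1 of the 40 genes differed, Psat1, against 6.62% of all genes (3.01% higher and 3.62% lower). Psat1 rose from 10.22 and 9.68 to 12.69 and 12.26 in WT cells and was at 11.83 and 12.09 and then 11.64 and 11.88 in Ifnar1-/- cells, and the Ifnar1-/- change minus the WT change was -2.73 on the log2 scale (SE 0.45, adjusted p = 0.001). The adjusted p lay between 9.27e-07 and 0.00854 over all alternatives. Both WT untreated arrays lay below both Ifnar1-/- untreated arrays for this gene, a difference in level that also lies between slides. Hspa1a rose in both genotypes, with a difference between the changes of -2.17 (SE 0.84, adjusted p = 0.145), and with the replicate block it passed (adjusted p = 0.00983), as did Dnajc3 (0.68, adjusted p = 0.0193) and Syvn1 (-0.56, adjusted p = 0.0406). That block passed 16.5% of all genes for this difference.

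For LPS+zVAD against LPS, 0 of the 40 genes differed between genotypes by limma, against 3.59% of all genes (2.7% higher and 0.884% lower). An unadjusted p below 0.05 was found for 2680 genes. The differences were -0.10 for Atf4 (SE 0.82), -0.13 for Asns (SE 1.19), 0.81 for Xbp1 (SE 0.36, adjusted p = 0.249), -0.86 for Ern1 (SE 0.36, adjusted p = 0.228), -0.77 for Dnajb9 (SE 0.23, adjusted p = 0.0698) and -1.67 for Ppp1r15a (SE 0.78, adjusted p = 0.29). With the replicate block 4 genes passed, Dnajb9 (adjusted p = 0.0287) and Ppp1r15a (adjusted p = 0.0426) with a smaller rise in Ifnar1-/- cells, Creld2 with a smaller fall (0.74, adjusted p = 0.0425) and Psat1 (1.16, adjusted p = 0.00222), against 13% of all genes. Without replicate 1 of WT LPS or of WT LPS+zVAD cells, 2 genes passed in the fit without the block. For zVAD against no treatment 0 of the 40 and 0% of all genes differed by limma (164 at an unadjusted p below 0.05), with differences below 0 for 37 of the 40 genes, all set against the same untreated arrays.

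Over all 16 groups the members ranged from nearly flat to very wide. Hspa8, the constitutive HSP70, had group means that spanned 0.43 log2 units, Syvn1 0.86 and Hsp90ab1 0.87. Chac1 spanned 7.16, Hspa1a 5.84, Trib3 4.82, Mthfd2 4.76, Asns 4.55 and Ppp1r15a 4.16. The genes that spanned 4.16 or more were ATF4 genes and the inducible HSP70, and none of the ER chaperones was among them. Next came the ER sensor Ern1 (3.58) and Hspb1 (3.28). The ATF4 genes Sesn2 (1.54) and Atf5 (1.38) spanned less than the ER chaperone Pdia4 (2.30). These spans also compare levels between genotypes, which lie on different slides. The remaining ER members, the lectin chaperone Calr and the disulfide isomerase Pdia3 with Herpud1, an ERAD scaffold, did not pass in any of the 17 comparisons, with or without the replicate block. Neither did Atf5, an ATF4-related factor, Hspa8, Hsph1 or Hspe1. Ddit3, Trib3, Sesn2, a stress-induced inhibitor of growth signalling, Hsp90ab1, Hspd1 and Bag3, a co-chaperone of HSP70, passed in no comparison without the block and in at least 1 with it. Another retained probe existed for 9 of the genes, and in all 8 cases where a gene with such a probe passed, the other probe changed in the same direction.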

How the data were processed

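RNA of mouse bone marrow-derived macrophages was hybridised to 32 Agilent single-colour arrays, 2 per group. Per the file headers, Feature Extraction 11.5.1.1 (protocol GE1_1105_Oct12, probe positions in mm9) gave the background-subtracted signal intensity of each spot, and the authors deposited those scanner intensities. The authors also deposited a table of normalized values on the log2 scale, which correlated with the scanner values at r of at least 0.989 and was used as an alternative. Its column medians lay between 7.61 and 7.8, and its centring is not given in the sources used here.

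Outlier spots were dropped, log2 intensities were quantile normalized, replicate spots averaged, and probes kept when well above background on at least 50% of arrays (21496 of 55681 probes, 33140 of which carry a symbol). Sesn2 had an outlier spot in Ifnar1-/- IFNβ+zVAD replicate 2, and that group rests on 1 array for this gene. The brightest probe stood for each of 16065 genes. limma 3.58.1 in R 4.3.3 fitted 16 group means (16 residual degrees of freedom), with Benjamini-Hochberg adjustment over all genes and a threshold of 0.05. SE is the moderated standard error, and the number of arrays limits the precision. The procedure was tested on simulated data. The simulated arrays varied independently, with no slide effect and 1 spread per gene, so that test does not cover the shared slides or the groups with wider gaps.

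The numbers of the replicates pair the samples of a genotype. They mark a slide, and deviations of same-numbered arrays correlated at r of 0.319 to 0.67 over 28 pairs of WT groups and 0.168 to 0.574 over 28 pairs of Ifnar1-/- groups. Alternatives were normexp background correction, scaling to the 75th percentile, no filter on dim probes, the mean of a gene's probes, the slide as a block, the deposited normalized values, leaving out both arrays of Ifnar1-/- cells with LPS+zVAD+Nec-1, and each array left out in turn. Values per array are given for the 5 genes with the largest change in each direction in a comparison and for Atf4, Ddit3, Xbp1, Hspa5, Hspa1a and Hsf1, and of the other pathway genes the 3 of each list with the largest change in each direction for LPS in WT cells are named. The members and the lists were chosen with earlier results of these data known.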

Additional observations from a re-analysis of the deposited data

Results flagged for a closer look

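The change of Psat1 with LPS differed between the genotypes in a test of the difference itself (limma, Ifnar1-/- change minus WT change, -2.73 on the log2 scale, SE 0.45, adjusted p = 0.001). The mean log2 signal was 9.95 untreated and 12.48 with LPS in WT cells, and 11.96 and 11.76 in Ifnar1-/- cells. With 2 arrays per group no array could be tested for standing apart within its group.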

How the results depend on the processing

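None of the 49 calls of the genes selected by the rule given with the processing turned its sign under any alternative run. Left out of these 49, all in WT cells, are Dnajb9, Shmt2, Hsp90aa1, Edem1 and Hsp90b1 for LPS+zVAD over LPS. Syvn1 for IFNβ and Sdf2l1 and Syvn1 for Nec-1 are left out as well. Of these, the deposited values lost Sdf2l1 (limma, adjusted p = 0.0651) and Syvn1 (0.0733) for Nec-1. They gave no value for Shmt2, Hsp90aa1 and Hsp90b1 and kept the others. With scaling to the 75th percentile the median of the ER genes turned from -0.13 to 0.37 for LPS in WT cells, from -0.06 to 0.27 for LPS in Ifnar1-/- cells and from 0.15 to -0.27 for Nec-1 in Ifnar1-/- cells, and the split for Nec-1 in WT cells turned from 7 higher and 3 lower to 3 and 5. Over all genes that split went from 2969 higher and 1584 lower to 2590 and 1794. Of the 49 calls, 39 held with scaling to the 75th percentile, 44 with normexp background correction, 44 with no filter on dim probes and all 49 with the mean of a gene's probes and with the replicate block. The deposited values kept 39, lost 7 and gave no value for 3.

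With the replicate number (slide) as a block, the number of the 40 genes past the threshold moved from 8 to 16 for LPS, from 10 to 19 for IFNβ, from 0 to 1 for zVAD and from 10 to 16 for Nec-1 added to LPS+zVAD in WT cells. In Ifnar1-/- cells it moved from 3 to 13 for LPS+zVAD over LPS and from 4 to 16 for Nec-1 added to LPS+zVAD, and for the genotype differences from 1 to 4 for LPS and from 0 to 4 for LPS+zVAD over LPS. It gave 21 in place of 15 for LPS+zVAD over LPS in WT cells and 8 in place of 6 for LPS in Ifnar1-/- cells. Over all genes the block moved the number past the threshold from 6686 to 8684 for LPS and from 5783 to 7977 for IFNβ in WT cells, and from 1369 to 3118 for LPS+zVAD over LPS in Ifnar1-/- cells. It removed none of the calls made without it, and the higher numbers come from calls that it added. Scaling to the 75th percentile gave 13 genes for LPS in WT cells and 8 for Nec-1 in Ifnar1-/- cells, beside 6149 and 2659 of all genes. Normexp gave 6 for LPS+zVAD over LPS in Ifnar1-/- cells. The deposited values gave 4 of the 35 members with a value for LPS in WT cells and 7 of 37 for Nec-1 in Ifnar1-/- cells. The shares of all genes under normexp and the deposited values are not given here. With both arrays of Ifnar1-/- cells under LPS+zVAD+Nec-1 left out, 5 genes passed for LPS+zVAD over LPS in Ifnar1-/- cells and 1 for its genotype difference. That fit could not be made for the comparison that uses these arrays. The cause of these moves was not tested.

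When each array was left out in turn, the lone array left in a group was assumed to vary like the other groups. In WT cells the count lay between 5 and 7 for LPS, 6 and 10 for IFNβ (both lowest without untreated replicate 1), 9 and 13 for LPS+zVAD over LPS (lowest without LPS+zVAD replicate 2) and 6 and 9 for Nec-1. In Ifnar1-/- cells it lay between 2 and 3 for LPS, 1 and 2 for LPS+zVAD over LPS and 1 and 9 for Nec-1. It stayed at 1 for the genotype difference in LPS and lay between 0 and 2 for that in LPS+zVAD over LPS.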
